A study of Mus musculus with 18 samples.

Results

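Galectins and annexins were followed as 9 named genes, the galectins Lgals1, Lgals3, Lgals8 and Lgals9 and the annexins Anxa1, Anxa2, Anxa4, Anxa5 and Anxa6, among 55487 gene IDs measured in mouse regulatory T cells. The members were taken by name, and all 9 passed the filter on low values that left 16694 genes for testing. Regulatory T cells, CD4+ T cells that carry the transcription factor Foxp3 and restrain immune responses, were freshly prepared from peripheral blood and from bone marrow, lung, liver, lymph node and spleen. All 6 groups were wild-type and untreated, with 3 poly(A) RNA libraries each and 18 in all. Sex, age, strain, sorting gate and the number of animals behind a library are not given in the sources used here, so the p-values measure the spread between libraries, which may be technical. Values are TPM, which corrects for transcript length and for the library total, so levels of different genes can be set side by side.

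Galectins are soluble lectins that bind β-galactoside sugars on glycoproteins. They leave the cell without a signal peptide and can bridge or cluster receptors on the same or a neighbouring cell. Galectin-1, encoded by Lgals1, is a known effector product of regulatory T cells, and galectin-9 is known as a ligand of the receptor TIM-3. Annexins bind acidic phospholipids in the presence of calcium and act at membranes in repair, vesicle traffic and cytoskeletal attachment. Annexin A1 is in addition a secreted ligand of formyl peptide receptors and is abundant in neutrophils and monocytes.

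The labels were checked against markers before the members were read. Foxp3 was detected in all 18 libraries, from 85.4 TPM in a blood library to 240 in a lymph node library. RNA of other cells was also present. The summed level of 22 neutrophil, monocyte and macrophage markers was 26356 to 27222 TPM in blood and 48048 to 48420 in bone marrow. It was 1634 to 1715 TPM in lung, 696 to 881 in spleen, 249 to 464 in liver and 54.6 to 108 in lymph node. All 10 neutrophil markers had a mean of at least 1 TPM in spleen, lung, bone marrow and blood, 8 did in liver and 7 in lymph node. Of the 12 monocyte and macrophage markers, 12 did in blood, 11 in spleen and bone marrow, 9 in liver and lung and 3 in lymph node, and Marco was at 0 in liver and bone marrow. The 21 T cell genes summed to 5038 TPM in blood against 11392 in lymph node. In bulk libraries like these, fewer cells of a type and less RNA per cell cannot be told apart.

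All 9 members differed among the 6 organs in limma's F test, with 68% of all 16694 tested genes called in the same test, so the call by itself does not set the members apart. The size of the difference varied widely. Anxa1 spanned a 124-fold range between its highest and lowest organ mean, Lgals3 a 19.4-fold range and Anxa2 a 7.31-fold range. Lgals1 spanned 3.44-fold, Lgals9 2.46-fold and Lgals8 2.32-fold. Anxa4, Anxa5 and Anxa6 stayed within 1.75-fold, 1.72-fold and 1.68-fold. By p-value, Anxa1 ranked 52 (adjusted p = 3.41e-14), Anxa2 173 (2.06e-12) and Lgals1 224 (5.64e-12) of the 16694 genes. The others had adjusted p = 3.27e-08 (Lgals3), 4.35e-08 (Anxa6), 2.71e-06 (Lgals9), 5.93e-05 (Anxa5), 0.000118 (Lgals8) and 0.00354 (Anxa4).

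**Figure D1:**
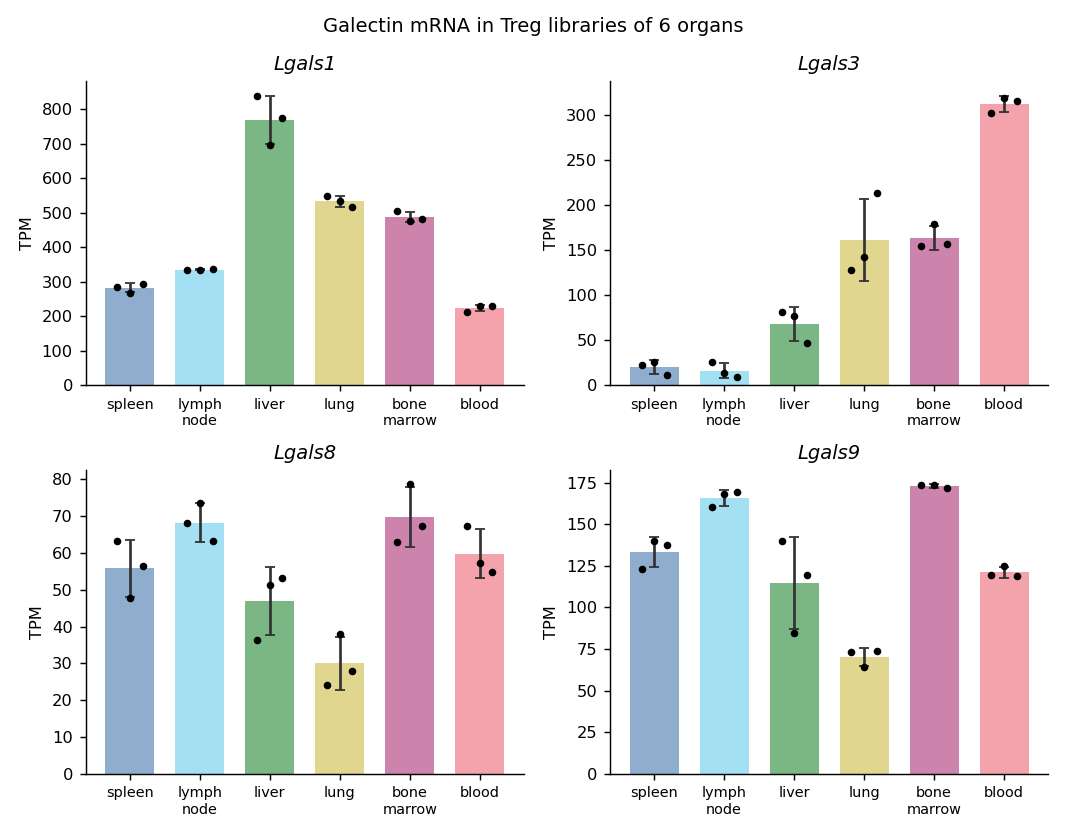
The 4 galectin genes in TPM (linear axis from 0, a panel per gene) by organ, with bars for the mean of 3 libraries, error bars for the SD and 1 point per library. Lgals1 is highest in liver and lowest in blood, Lgals3 has the opposite extreme with 302 to 320 TPM in blood, and Lgals8 and Lgals9 are lowest in lung.

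Lgals1 was the most abundant galectin in every organ but blood, and it was highest in the liver. The gene lies at chr15:78926725-78930465 on the plus strand (GRCm38, ENSMUSG00000068220). The liver libraries held 837, 696 and 774 TPM and the lung libraries 549, 535 and 515. Bone marrow held 505, 476 and 483 TPM, lymph node 333, 335 and 337, spleen 285, 268 and 293, and blood 212, 228 and 230. No 2 neighbours in this order overlapped, so the order liver, lung, bone marrow, lymph node, spleen, blood held for every library. On the log2(TPM + 1) scale Lgals1 was higher in liver than in lymph node by 1.19 (SE 0.06, adjusted p = 5.09e-10) and than in spleen by 1.44 (SE 0.06, adjusted p = 4.07e-11). The lung difference was 0.67 over lymph node (adjusted p = 2.01e-07) and 0.92 over spleen (adjusted p = 5.04e-09). Blood was lower than liver, with a log2 difference of -1.77 (adjusted p = 1.97e-12), than lung with -1.25 and than bone marrow with -1.12. The smaller deficits of blood against spleen (-0.33, adjusted p = 0.000335) and lymph node (-0.58, adjusted p = 9.89e-07) depended on how libraries were scaled. With the 21 T cell genes set equal between libraries they became excesses of 0.76 and 0.59, while the differences from liver, lung and bone marrow kept their sign and their call.

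Lgals3 ran in another direction and was highest in blood. Galectin-3 is the galectin with a long N-terminal tail through which it forms oligomers, and it is a widely used macrophage product. The gene lies at chr14:47367751-47386160 on the plus strand (ENSMUSG00000050335). Blood libraries held 302, 320 and 316 TPM, bone marrow 154, 179 and 156, and lung 128, 143 and 213. Liver held 80.7, 76.5 and 46.3 TPM, spleen 22.2, 26.0 and 11.6, and lymph node 25.8, 13.4 and 9.18. Blood stood above every other library, bone marrow overlapped lung, and spleen overlapped lymph node. Among spleen, lymph node, liver and lung, every library of the non-lymphoid organs was above every library of the lymphoid ones. The log2 difference was 2.09 in liver and 3.33 in lung over lymph node (SE 0.33 each, adjusted p = 0.000187 and 6.59e-07), and 1.75 and 2.99 over spleen (adjusted p = 0.000791 and 2.3e-06). Blood exceeded spleen by 3.98, lymph node by 4.32 and liver by 2.23, with adjusted p between 2.89e-08 and 4.73e-05. The excess of blood over lung (0.99, adjusted p = 0.0235) was lost on leaving out lung library 1 or 2 or blood library 2 or 3 and with library weights, with adjusted p up to 0.148. That over bone marrow (0.94, adjusted p = 0.04) was lost on leaving out any 1 of the 6 libraries of those organs, with a pseudocount of 0.1 and without a filter, with adjusted p up to 0.102.

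The myeloid markers moved with part of this pattern. Blood and bone marrow, first and second for Lgals3, are also the organs with most myeloid marker RNA, at 26356 TPM or more, and lung came next at 1634 or more. Over the 18 libraries the Pearson r of Lgals3 with the summed monocyte and macrophage markers was 0.86, and over the 12 libraries of spleen, lymph node, liver and lung it was 0.70, as a description of libraries that share organs. With the summed T cell genes it was -0.91 and -0.94, with the Treg markers -0.20 and 0.87, with the neutrophil markers 0.74 and 0.47 and with the platelet markers 0.72 and 0.26. Ctla4 alone gave a mean of 1486 of the 2496 TPM of the summed Treg markers in lung and 1064 of 1751 in liver. In spleen it gave 201 of 891 TPM and in lymph node 335 of 1242. Foxp3 and Il2ra were instead highest in lymph node, at means of 239 and 234 TPM, so an r with this sum is not a measure of Treg content. The part of myeloid, platelet or other-cell RNA in the Lgals3 level of any organ was not tested. All 3 liver libraries held less myeloid marker RNA than any spleen library (at most 464 against at least 696 TPM), and each held more Lgals3 than any spleen library (at least 46.3 against at most 26.0 TPM). That liver excess was not called with library weights, at adjusted p = 0.0889. For Lgals1 the r over the 18 and the 12 libraries was 0.24 and -0.74 with the T cell genes and 0.78 and 0.76 with the Treg markers. With the neutrophil markers it was -0.20 and 0.16, with the monocyte and macrophage markers -0.29 and 0.16 and with the platelet markers -0.51 and 0.09. The part of other-cell RNA in the Lgals1 level of any organ was not tested.

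Lgals8 and Lgals9, tandem-repeat galectins with a pair of sugar-binding domains in 1 chain, were lowest in lung. Lgals9 (chr11:78962974-78984946, minus strand, ENSMUSG00000001123) was at 173, 174 and 172 TPM in bone marrow and 160, 168 and 169 in lymph node. Spleen held 123, 140 and 137 TPM, blood 119, 125 and 119, and liver 140, 84.6 and 120. Lung held 73.1, 64.1 and 73.5 TPM, below every other library. The liver libraries spread most, and liver overlapped blood and spleen overlapped blood. Lung was lower than lymph node with a log2 difference of -1.23 (SE 0.13, adjusted p = 1.04e-06) and lower than spleen with -0.92 (adjusted p = 2.61e-05). Blood exceeded lung by 0.78 (adjusted p = 0.000104). Those lung differences kept their call under every alternative tried. The lower level in liver than in lymph node (-0.56, adjusted p = 0.00326) was lost when only those 6 libraries were fitted or the T cell genes or the median of ratios set the scale, with adjusted p up to 0.213. The lower levels in blood than in lymph node (-0.45, adjusted p = 0.01) and bone marrow (-0.51, adjusted p = 0.0053) were lost under median-of-ratios scaling and turned to 0.72 and 0.03 under T cell scaling.

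Lgals8 (chr13:12439415-12464944, minus strand, ENSMUSG00000057554), whose product is known to mark damaged vesicles inside cells, had the same low point. Lung held 24.0, 37.9 and 28.0 TPM. Lymph node held 68.2, 73.5 and 63.2 TPM, bone marrow 62.9, 78.7 and 67.4, blood 67.4, 57.3 and 55.0, spleen 63.3, 47.8 and 56.5, and liver 36.2, 51.3 and 53.3. Every pair of neighbours in the order of means overlapped, and lung overlapped liver alone. Lung was lower than lymph node with a log2 difference of -1.18 (SE 0.17, adjusted p = 4.23e-05), than spleen with -0.89 (adjusted p = 0.000609), and blood exceeded lung by 0.99 (adjusted p = 0.000193), and these kept their call under each alternative. The liver deficit against lymph node (-0.55, adjusted p = 0.0239) was lost in 8 of the 28 alternatives, among them leaving out lymph node library 1 or 2 or liver library 1 (adjusted p up to 0.103). Heatr1 overlaps Lgals8 on the other strand at organ means of 25.7 to 45.1 TPM, and whether strand was used in counting is not given in the sources used here, so the Lgals8 level is uncertain to that extent. Across the 18 libraries Lgals8 and Lgals9 had a Pearson r of 0.78, the highest between any 2 of the galectins, whereas Lgals1 and Lgals3 had 0.07.

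The make-up of the galectin RNA differed between organs, as did its sum. The 4 genes together gave 491 TPM in spleen, 585 in lymph node, 717 in blood, 795 in lung, 894 in bone marrow and 999 in liver. In liver, Lgals1 made up 77.0% ± 0.79 (SD, n = 3) of that sum, against 57.4% ± 1.61 in spleen and 57.2% ± 0.855 in lymph node. In blood the Lgals1 share was 31.2% ± 0.838 and Lgals3 led with 43.6% ± 0.423. The Lgals9 share was 27.2% in spleen and 28.3% in lymph node against 8.84% in lung and 11.4% in liver. The ratio of Lgals1 to Lgals9 TPM, which no scaling of whole libraries can alter, was 6.90 ± 1.17 in liver and 7.62 ± 0.669 in lung. It was 2.12 ± 0.202 in spleen, 2.02 ± 0.0499 in lymph node, 2.82 ± 0.089 in bone marrow and 1.85 ± 0.0767 in blood, so liver and lung did not overlap the other organs.

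**Figure D2:**
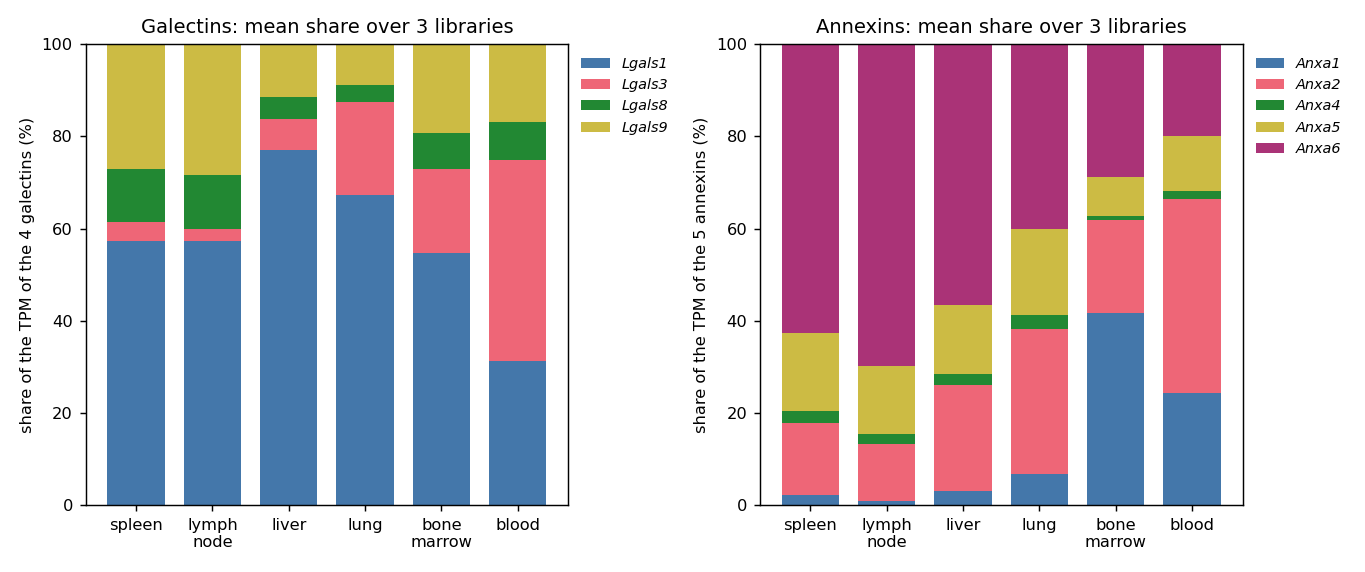
Share of each gene in the summed TPM of the 4 galectins (left) and the 5 annexins (right), in percent, as the mean of 3 libraries per organ. Lgals1 takes 77.0% of the galectin sum in liver and 31.2% in blood, and Anxa6 takes 69.7% of the annexin sum in lymph node and 20.1% in blood.

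Among the annexins, Anxa1 and Anxa2 carried most of the difference between organs. Anxa1 (chr19:20373428-20390944, minus strand, ENSMUSG00000024659) was at 574, 556 and 537 TPM in bone marrow and 289, 262 and 277 in blood. It was at 46.7, 41.3 and 39.9 TPM in lung, 16.9, 24.6 and 19.0 in liver, 10.6, 9.92 and 11.1 in spleen, and 3.36, 4.05 and 6.08 in lymph node. No neighbours in this order overlapped. Anxa2 (chr9:69453620-69491795, plus strand, ENSMUSG00000032231), which forms a tetramer with S100a10 at the plasma membrane, was at 464, 498 and 470 TPM in blood and 263, 278 and 262 in bone marrow. Lung held 189, 205 and 193 TPM, liver 186, 131 and 145, spleen 73.6, 74.7 and 76.9, and lymph node 64.9, 66.5 and 64.3. Again no neighbours overlapped, and the orders of the 2 genes differed only in which of blood and bone marrow came first. Over the 18 libraries the Pearson r was 0.90 between Anxa1 and Anxa2, 0.95 between Anxa2 and Lgals3 and 0.85 between Anxa1 and Lgals3. Anxa5, with a narrower range, varied with them as well, with r of 0.90 with Lgals3, 0.92 with Anxa2 and 0.78 with Anxa1.

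**Figure D3:**
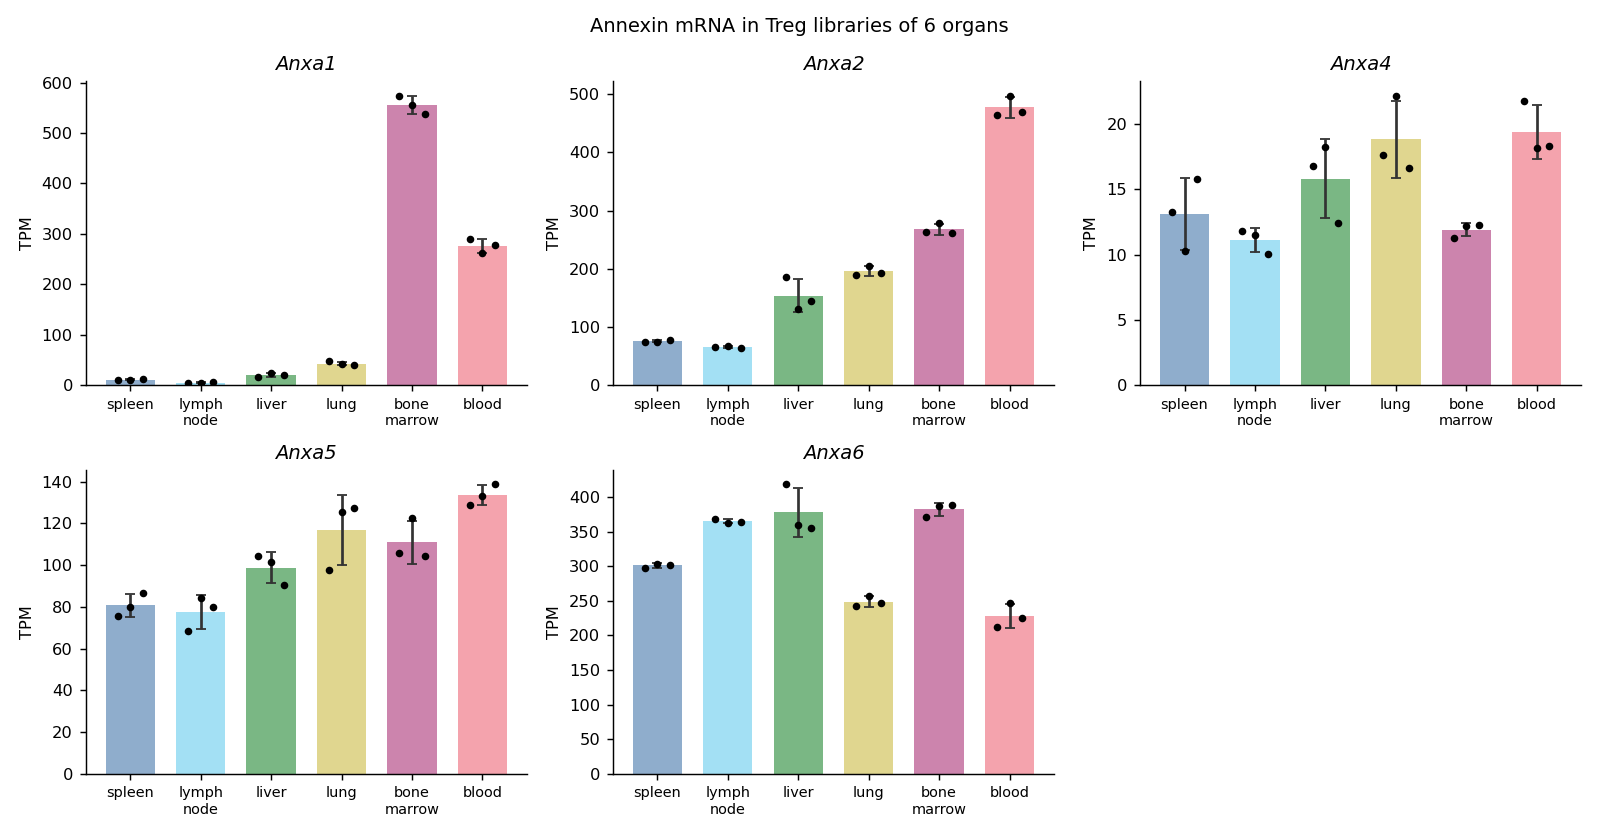
The 5 annexin genes in TPM (linear axis from 0, a panel per gene) by organ, with bars for the mean of 3 libraries, error bars for the SD and 1 point per library. Anxa1 runs from 3.36 TPM in a lymph node library to 574 in a bone marrow library, while Anxa4 stays between 10.1 and 22.2 TPM in all 18.

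Lgals3, Anxa1 and Anxa2, the members with the widest ranges of organ means, varied together across the libraries, and their promoter windows are shown. Each is RefSeq sequence on GRCm38.p6 from 250 bases before to 50 after a transcript start, read 5′ to 3′ on the strand of the gene. Capitals mark matches on either strand to 6 motifs, those of AP-1, the GC box, C/EBP, PU.1, STAT and TATA, whose letters follow below the sequences. The windows are chr14:47373610-47373909 (plus strand) for Lgals3, chr19:20390622-20390921 (minus strand) for Anxa1 and chr9:69453433-69453732 (plus strand) for Anxa2.
Lgals3: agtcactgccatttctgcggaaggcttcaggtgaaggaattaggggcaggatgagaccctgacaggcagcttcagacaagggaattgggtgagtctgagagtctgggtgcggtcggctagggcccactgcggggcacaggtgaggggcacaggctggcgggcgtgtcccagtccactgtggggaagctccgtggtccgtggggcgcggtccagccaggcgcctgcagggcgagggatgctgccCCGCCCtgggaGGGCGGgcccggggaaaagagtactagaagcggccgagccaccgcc
Anxa1: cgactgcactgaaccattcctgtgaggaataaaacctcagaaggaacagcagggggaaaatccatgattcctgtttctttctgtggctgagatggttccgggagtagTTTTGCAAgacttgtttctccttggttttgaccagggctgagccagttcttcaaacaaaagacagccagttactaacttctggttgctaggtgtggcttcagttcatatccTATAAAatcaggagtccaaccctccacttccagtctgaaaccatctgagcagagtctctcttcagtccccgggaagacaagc
Anxa2: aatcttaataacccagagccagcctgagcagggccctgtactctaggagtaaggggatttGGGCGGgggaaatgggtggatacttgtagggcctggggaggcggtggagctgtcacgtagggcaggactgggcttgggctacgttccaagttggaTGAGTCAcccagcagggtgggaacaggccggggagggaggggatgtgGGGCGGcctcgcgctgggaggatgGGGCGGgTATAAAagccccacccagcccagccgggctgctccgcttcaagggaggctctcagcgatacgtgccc
The Anxa1 window held a C/EBP match (letters TTGCNNAA, here on the opposite strand) 143 bases before the start and a TATA match (TATAAA) 32 bases before it. The Anxa2 window held an AP-1 match (TGANTCA) 95 bases before the start, GC boxes (the letters GGGCGG) 190, 48 and 24 bases before it and a TATA match 17 bases before it. The Lgals3 window held only GC boxes, with 1 on the opposite strand 7 bases before the start and 1 just after it. No match overlapped another. Of 32851 mouse promoter windows of this length, 10.8% held the C/EBP letters, 7.81% the AP-1 letters, 35.7% a GC box and 13.6% the TATA letters, while the PU.1 letters GAGGAAG (13.6%) and the STAT letters TTCNNNGAA (8.3%) were in none of the 3. No motif was shared by all 3 windows, and a match is a string of letters, not a site shown to be used. Of the 9 members, 7 had an entry among these windows. The window of Anxa5, which also varied with these genes, is not shown and held no match to the 6 motifs.

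Anxa1 and Anxa2 were both higher in liver and in lung than in lymph node and in spleen. For Anxa1 the log2 difference over lymph node was 1.96 in liver and 3.02 in lung (SE 0.15, adjusted p = 1.41e-07 and 2.56e-10), and over spleen 0.86 and 1.92 (adjusted p = 0.000529 and 6.41e-08). For Anxa2 the differences over lymph node were 1.21 and 1.57 (SE 0.09, adjusted p = 8.24e-08 and 1.13e-09), and over spleen 1.01 and 1.37 (adjusted p = 5.74e-07 and 6.25e-09). Blood exceeded lymph node by 5.69 for Anxa1 and by 2.85 for Anxa2, spleen by 4.59 and 2.65, liver by 3.73 and 1.64, and lung by 2.67 and 1.28, with adjusted p of at most 1.08e-08. Against bone marrow the 2 genes parted. Anxa1 was lower in blood, with a log2 difference of -1.01 (adjusted p = 0.000101), and Anxa2 was higher by 0.83 (adjusted p = 3.21e-06). The ratio of Anxa1 to Anxa2 TPM was 2.08 ± 0.0955 in bone marrow, 0.58 ± 0.0491 in blood and 0.0691 ± 0.0225 in lymph node. All these calls kept their side and sign under each alternative, except that of Anxa1 in liver over spleen, which was not called with library weights at adjusted p = 0.0812.

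The neutrophil and monocyte markers moved with these genes as well. Summed neutrophil markers were highest in bone marrow, at 45260 TPM, as Anxa1 was, and summed monocyte and macrophage markers were highest in blood, at 8333 TPM, as Anxa2 and Lgals3 were. The Pearson r of Anxa1 with the neutrophil sum was 0.96 over 18 libraries and 0.76 over the 12 of spleen, lymph node, liver and lung, and that of Anxa2 was 0.82 and 0.54. With the monocyte and macrophage sum it was 0.92 and 0.84 for Anxa1 and 0.90 and 0.67 for Anxa2, and with the platelet sum 0.78 and 0.42 for Anxa1 and 0.84 and 0.33 for Anxa2. With the T cell sum it was -0.85 and -0.96 for Anxa1 and -0.97 over both sets for Anxa2, and with the Treg markers -0.45 and 0.78 for Anxa1 and -0.38 and 0.88 for Anxa2. The Treg sum was largely Ctla4 in lung and liver, as given for Lgals3. Platelet markers summed to a mean of 2202 TPM in blood, 78.2 in bone marrow and at most 11.2 elsewhere. Lung epithelium markers summed to a mean of 259 TPM in lung and at most 17.4 elsewhere. The part of myeloid, platelet or epithelial RNA in the levels of any organ was not tested. Between liver and spleen the order of the summed myeloid markers was opposite to that of Anxa1 and Anxa2. Each liver library was above each spleen library for Anxa1 and for Anxa2 and below each for the summed myeloid markers. Erythroid marker RNA moved with the liver excess of Lgals1, Lgals3, Anxa1 and Anxa2, as 7 erythroid genes summed to 10932 to 11969 TPM in liver and 1844 to 1986 in spleen. Of these genes 5 had a mean of at least 1 TPM in liver and 7 in spleen, none was at 0 in all libraries of either organ, and their part in the result was not tested.

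**Figure D4:**
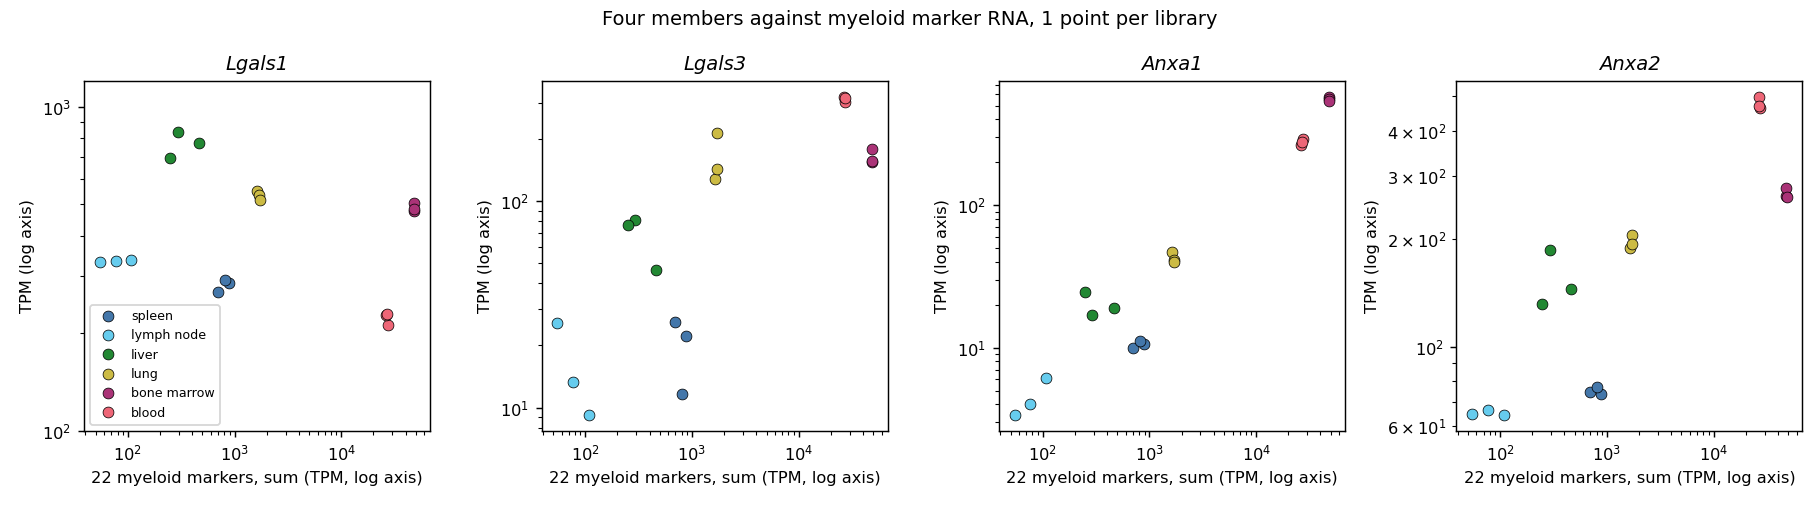
TPM of Lgals1, Lgals3, Anxa1 and Anxa2 against the summed TPM of 22 neutrophil, monocyte and macrophage markers, both on log axes, with 1 point per library in the colour of its organ. Liver points lie to the left of and above spleen points in the Lgals3, Anxa1 and Anxa2 panels, and blood and bone marrow lie far to the right.

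Anxa6 was the leading annexin outside blood and bone marrow and had a flat profile. The gene (chr11:54979108-55033445, minus strand, ENSMUSG00000018340) encodes the large annexin with a doubled set of repeats, known for membrane and cholesterol traffic. It was at 372, 387 and 388 TPM in bone marrow, 418, 360 and 355 in liver, and 368, 363 and 364 in lymph node. Spleen held 297, 304 and 302 TPM, lung 242, 257 and 246, and blood 212, 246 and 224. Liver overlapped bone marrow and lymph node, lung overlapped blood, and spleen stood apart. Lung was lower than lymph node, with a log2 difference of -0.55 (SE 0.06, adjusted p = 2.85e-06), and lower than spleen with -0.28 (adjusted p = 0.00213), and liver exceeded spleen by 0.32 (adjusted p = 0.000934). Blood was lower than spleen (-0.40), lymph node (-0.68), liver (-0.73) and bone marrow (-0.75), with adjusted p of at most 7.98e-05. With the T cell genes set equal, the blood differences from spleen and lymph node became 0.69 and 0.49, that from liver was 0.12 and that from bone marrow was -0.20. The lung differences then were -0.04 from lymph node and 0.16 from spleen.

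Anxa5 and Anxa4 differed by little. Anxa5 (chr3:36448923-36475894, minus strand, ENSMUSG00000027712), whose product binds exposed phosphatidylserine and is used as a probe of dying cells, was at 129, 133 and 139 TPM in blood and 68.4, 84.2 and 80.0 in lymph node. Lung held 97.6, 125 and 128 TPM, bone marrow 106, 123 and 104, liver 104, 102 and 90.4, and spleen 75.6, 80.1 and 86.5. It was higher in blood than in spleen (0.72, adjusted p = 6.61e-05), lymph node (0.78, adjusted p = 2.73e-05) and liver (0.43, adjusted p = 0.00455), and higher in lung than in lymph node (0.58, adjusted p = 0.000451) and spleen (0.52, adjusted p = 0.00119). The blood excess over liver was not called with library weights, at adjusted p = 0.077. The excess of liver over lymph node (0.35, adjusted p = 0.0234) was lost in 6 of the 28 alternatives, among them leaving out lymph node library 1 or liver library 1 or 2 (adjusted p up to 0.12), and that over spleen (0.29) was not called at adjusted p = 0.0567. Anxa4 (chr6:86736840-86793584, minus strand, ENSMUSG00000029994), an annexin best known from secretory epithelia, ranged from 10.1 to 22.2 TPM over all libraries, and every pair of neighbouring organs overlapped. It was higher in blood than in lymph node (0.75, SE 0.17, adjusted p = 0.0026) and bone marrow (0.66, adjusted p = 0.00828), and higher in lung than in lymph node (0.70, adjusted p = 0.00378). Its excesses of blood over spleen (0.55, adjusted p = 0.021) and of lung over spleen (0.50, adjusted p = 0.0298) were each lost on leaving out single libraries, with adjusted p up to 0.11 and 0.146. These were spleen library 2 or blood library 1 for the former and spleen library 1 or 2 or lung library 2 for the latter.

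The annexin sum was larger in the myeloid-rich libraries, at 1328 TPM in bone marrow and 1134 in blood against 480 to 667 in the other organs. Anxa6 made up 69.7% ± 1.38 of it in lymph node, 62.7% ± 1.14 in spleen, 56.7% ± 0.379 in liver and 39.9% ± 0.799 in lung. In bone marrow Anxa1 led with 41.8% ± 1.27, and in blood Anxa2 led with 42.1% ± 0.811. The ratio of Anxa2 to Anxa6 TPM, free of library scaling, was 0.179 ± 0.00399 in lymph node, 0.249 ± 0.00448 in spleen, 0.405 ± 0.0394 in liver, 0.700 ± 0.0233 in bone marrow, 0.787 ± 0.00984 in lung and 2.10 ± 0.0834 in blood. None of these organs overlapped in the ratio.

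Read by comparison, the annexins were called mostly as higher in lung and liver than in lymph node and spleen. The galectins split, with Lgals1 and Lgals3 called higher and Lgals8 and Lgals9 called lower or not called. In lung against lymph node 6 members were higher and 3 lower, where 14.9% of all tested genes were called higher and 27.4% lower (42.3% in all). In lung against spleen 6 were higher and 3 lower, beside 18% and 22.8% of all genes (40.8%). In liver against lymph node 5 were higher and 2 lower, beside 9.45% and 21.6% (31.1%), and in liver against spleen 5 were higher and none lower, beside 14% and 17.3% (31.3%). Lgals1, Lgals3, Anxa1 and Anxa2 were among the higher ones in all 4 of these comparisons. Lgals8 and Lgals9 were called lower in both lung comparisons and in liver against lymph node, and Anxa6 in both lung comparisons. The median log2 difference of the 9 members was 0.67 and 0.52 in lung over lymph node and spleen, where the median of all tested genes was -0.20 and -0.08. In liver it was 0.46 and 0.32, against -0.19 and -0.06 for all genes.

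For blood, whose 5 comparisons share the 3 blood libraries, 5 members were higher and 2 lower than in spleen, beside 20.1% of all genes higher and 15.3% lower (35.4% in all). Against lymph node 5 were higher and 3 lower, beside 16.4% and 21% (37.4%). Against liver 4 were higher and 2 lower, beside 23.3% and 16.1% (39.4%). Against lung 5 were higher and 1 lower, beside 26.4% and 17.3% (43.7%), and against bone marrow 3 were higher and 4 lower, beside 13% and 18.8% (31.8%). The corresponding medians were 0.55, 0.75, 0.36, 0.78 and -0.22, beside 0, -0.15, 0.07, 0.12 and -0.11 for all genes. With T cell genes set equal between libraries, the median gene itself shifted by 0.55 to 1.18 in the blood comparisons and by 0.25 to 0.51 in the others.

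**Figure D5:**
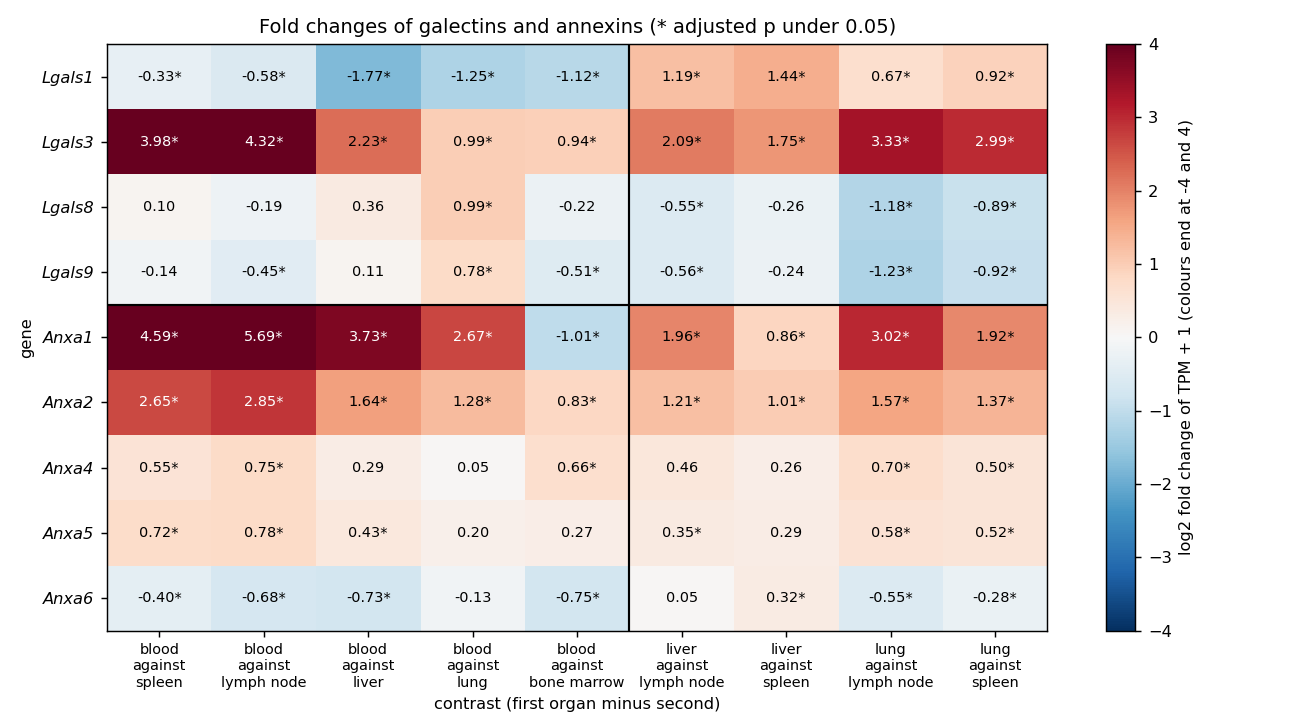
Log2 differences (log2(TPM + 1) scale) of the 9 members in 9 comparisons, as printed value and as colour that ends at -4 and 4, with an asterisk at an adjusted p under 0.05 in limma. Lgals1 and Anxa6 are below 0 in the blood columns while Anxa1 and Anxa2 are above 0 there apart from Anxa1 against bone marrow. With T cell scaling Lgals1 is above 0 against spleen and lymph node, and Anxa6 against every organ but bone marrow.

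Partners of the annexins were compared through a list of 10 S100 proteins, receptors and related genes, of which 8 were tested. Against lymph node, 7 were higher and 1 lower in blood, 5 were higher in liver and 7 were higher in lung, with none lower in liver or lung, beside 37.4%, 31.1% and 42.3% of all genes called. S100a10, the light chain of the Anxa2 tetramer, had another order than Anxa2. Its mean was 1484 TPM in liver, 1049 in bone marrow and 999 in lung. Spleen held 851 TPM, lymph node 652 and blood 589. It exceeded lymph node by 1.18 in liver (SE 0.04, adjusted p = 8.79e-12) and by 0.61 in lung (adjusted p = 1.16e-08). In blood the difference was -0.15 (adjusted p = 0.0134), which became 0.10 with median-of-ratios scaling and 1.03 with T cell scaling, against 2.85 for Anxa2 in the same comparison. S100a11, a partner of annexin A1, was highest in blood (1525 TPM) and bone marrow (1391), and exceeded lymph node by 2.17 in blood, 1.46 in liver and 1.24 in lung, with adjusted p of at most 2.66e-09. S100a4 exceeded it by 1.80 in liver, 1.44 in lung and 0.84 in blood, and Ahnak, a giant scaffold that binds the Anxa2 complex, by 1.10 in liver and 0.64 in blood. The annexin A1 receptor genes Fpr1 and Fpr2 had means of 37.9 and 101 TPM in bone marrow, 44.9 and 96.7 in blood and 6.27 and 9.45 in lung. In spleen, lymph node and liver their means did not exceed 2.12 TPM. Myeloid marker RNA was likewise highest in bone marrow, blood and lung, and its part in these levels was not tested.

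Other genes of both families were read from the same fit. Of 7 other annexins 4 were tested and of 8 other galectins and related genes 5 were. Against lymph node, 1 other annexin was higher in blood, 1 was lower in liver and none was called in lung, of 4 tested, beside 37.4%, 31.1% and 42.3% of all genes called. Anxa3, a neutrophil annexin, had a mean of 69.4 TPM in bone marrow, 15.9 in blood and at most 6.77 in the other organs. It exceeded lymph node in blood by 2.71 (adjusted p = 0.00372). Anxa11 had organ means from 58.3 TPM in liver to 117 in bone marrow, and its lower level in liver than in lymph node (-0.40, adjusted p = 0.00411) was lost with T cell and median-of-ratios scaling. Among the other galectins, 1 was higher in blood and 1 higher and 1 lower in lung, of 5 tested, beside 37.4% and 42.3% of all genes called. None was called in liver (31.1%). Those in lung were Lgals7 (1.82, adjusted p = 0.0484) and Grifin (-1.40, adjusted p = 0.0457), the latter at most 2.37 TPM in any organ mean and named after its values were seen. Both calls were lost under most of the alternatives, with adjusted p up to 0.247 and 0.136. Lgalsl, a galectin-related gene, was at 18.7 TPM in blood and 4.38 in lymph node, a difference of 1.88 (adjusted p = 0.00113).

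By Pearson r of log2(TPM + 1) over the 18 libraries, the genes most like each member were listed as a description. Lgals1 was nearest to Cxcr6 (0.974), Cd200r1 (0.967) and Vps54 (0.964), and Lgals3 to Cebpb (0.959), Kctd12 (0.957) and Anxa2 (0.953). Anxa1 was nearest to Dstn (0.984), Cd93 (0.972) and Retnlg (0.969), the last a neutrophil marker, and the genes near Anxa2 included Aldh1a1 (0.967) and Myadm (0.965). Lgals9 was nearest to Aes (0.977), Rps6ka1 (0.960) and Was (0.954), Lgals8 to Pik3r2 (0.937), Adam10 (0.936) and Rfng (0.917), and Anxa6 to Abca2 (0.960), Nrp1 (0.947) and Rpa1 (0.943). For Anxa5 the nearest were Metrnl (0.924), Scpep1 (0.922) and Dusp3 (0.920). For Anxa4, the member with the weakest neighbours, they were Stx11 (0.888), Ramac (0.883) and Wsb1 (0.868).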

How the data were processed

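Poly(A) RNA was sequenced from regulatory T cells of 6 organs, 3 libraries each, with a directional library kit per the labels' protocols. TPM values are as the authors deposited them, in 1 table for each library, for 55487 Ensembl gene IDs. The submitters' processing notes name STAR, RSEM and mm10, and the versions, annotation and strand setting are not given in the sources used here. TPM keeps no read depth, so no counting interval can be given. Between 14314 and 19797 genes per library were above 0, and no 2 tables were identical. TPM is a share of a library, so RNA of other cells lowers all other genes. Symbols and coordinates came from GENCODE M21 (GRCm38), which named 55141 IDs, and promoter windows from RefSeq.

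Genes whose mean reached 1 TPM in some organ were tested (16694) with limma 3.58.1 in R 4.3.3 on log2(TPM + 1), with all 18 libraries in 1 model with a mean per organ, no covariate, and eBayes with trend and robust settings. The model shares 1 spread per gene over all organs, but the spreads were unequal. Estimated library weights, low where spread is large, were 0.234 to 0.262 in liver and 3.053 to 3.494 in lymph node. Liver also had the fewest genes above 0, at 14314 to 14408 per library. The SE and p-values of liver comparisons may therefore be too small. An F test over the 6 organs and 9 contrasts were read. P-values were adjusted by Benjamini-Hochberg over all genes, and calls were made at an adjusted p under 0.05. Fold changes on this scale understate changes of low genes. The fit was tested on simulated data. The 9 members were named as given, and partner genes were named only from fixed lists and where their mean reached 10 TPM in some organ, except Grifin, and, for likeness, as the 3 genes of highest r, of which 1 is not reported here. The members and lists were chosen with earlier results of these data known. Alternatives changed the pseudocount (0.1), the filter (none, or 5 TPM), the scaling (21 T cell genes, median of ratios, abundant RNA classes removed), library weights, the libraries fitted, the replicate block, and each library left out in turn.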

Additional observations from a re-analysis of the deposited data

How the results depend on the processing

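Of 81 member results in the 9 comparisons 64 were called, and 45 of these kept call and direction under all 28 alternatives and 51 under the 3 scalings. T cell scaling turned 13 of the 21 reversed values. Under it, Lgals1 gave 0.76 in blood over spleen and 0.59 over lymph node, and Lgals9 gave 0.95, 0.72 and 0.03 in blood over spleen, lymph node and bone marrow and 0.00 in liver over spleen. Anxa6 gave 0.69, 0.49, 0.12 and 0.53 in blood over spleen, lymph node, liver and lung and 0.16 in lung over spleen, and Lgals8 gave 0.97 and 0.33 in blood over lymph node and bone marrow. Median-of-ratios scaling gave 0.05 for Lgals8 in blood over lymph node. Without abundant RNA classes, Lgals8 in blood over spleen was -0.05, Anxa4 in blood over lung -0.02 and Anxa11 in blood over lymph node 0.00. Of 48 results on other named genes, 26 kept call and direction. In blood over lymph node T cell scaling gave 1.03 for S100a10, 0.96 for B4galt1, 0.26 for St6gal1 and 0.51 for Mgat5, and median of ratios 0.10 for S100a10 and 0.04 for B4galt1. In lung over lymph node T cell scaling gave 0.32 for Anxa11 and 0.10 for Lgalsl, and median of ratios 0.08 for Anxa11. Leaving out single libraries gave ranges of 0.00 to 0.19 for Lgals8 in blood over spleen, -0.09 to 0.26 for Lgals9 in blood over liver, -0.03 to 0.17 for Anxa4 in blood over lung, -0.03 to 0.09 for Anxa6 in liver over lymph node, -0.13 to 0.20 for Havcr2 and -1.35 to 0.27 for Anxa3 in liver over lymph node. Anxa4 was not called by the F test over spleen, lymph node, liver and lung alone (adjusted p = 0.058). The causes were not tested.

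The F test called 7547 genes in those 4 organs against 11348 in all 6. T cell scaling called 10784 genes in blood against spleen (5912 otherwise), 10333 against lymph node (6249) and 11013 against liver (6580). Library weights called 10167 in blood against lymph node, 8930 against bone marrow (5308) and 3035 in liver against spleen (5219). Fits of only the 2 organs called 9623, 8478 and 2257 in the same 3 comparisons and 3390 in liver against lymph node (5189). Members called in liver against lymph node fell from 7 to 4 in the fit of 2 organs, and in liver against spleen from 5 to 3 with library weights. The share of calls that were higher went, with T cell scaling, from 56.9% to 97.0% in blood against spleen, 43.9% to 97.3% against lymph node, 59.1% to 92.3% against liver, 60.5% to 87.8% against lung and 41.0% to 81.7% against bone marrow. It went from 30.4% to 65.7% in liver and 35.2% to 69.8% in lung against lymph node, and from 44.7% to 68.6% and 44.0% to 72.3% against spleen. With median of ratios it was 64.5% in blood, 51.9% in liver and 53.5% in lung against lymph node and 59.4% in blood against bone marrow, and without abundant RNA classes 46.6% in blood against spleen.

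Whether replicate numbers pair libraries was not settled by their values. Same-numbered libraries had a mean r of 0.0062 between their deviations over 45 pairs, against -0.0031 over 90 pairs with different numbers. Of 18 libraries, 9 correlated best with their own number out of 3 numbers. A replicate block gave 5803 called genes in blood against spleen and changed 1 member result, Anxa5 in liver over spleen (adjusted p = 0.0403).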

Other observations

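Surface proteins that galectins bind and enzymes that build or cap their sugar ligands also differed between organs. Of 11 binding proteins, 2 were higher and 6 lower in liver than in lymph node and 3 higher and 5 lower in lung, beside 31.1% and 42.3% of all genes called. With T cell genes set equal these counts became 5 and 3 in liver and 7 and 2 in lung. Before that scaling, Lag3, Itgal, Spn and Tnfrsf25 were lower in both organs, Lamp1 and P4hb in liver and Ptprc in lung. Itgb1, the β1 integrin subunit that galectin-1 binds, was at 669 TPM in liver against 194 in lymph node, a log2 difference of 1.78 (SE 0.06, adjusted p = 1.89e-12), and at 358 in lung (0.87, adjusted p = 4.93e-09). Lag3, an inhibitory receptor reported to bind galectin-3, was highest in lymph node at 83.1 TPM and lower in lung (4.96 TPM, -3.85), liver (9.84 TPM, -2.97) and blood (2.22 TPM, -4.73), with adjusted p of at most 3.56e-08. Havcr2, which encodes the galectin-9 receptor TIM-3, was at 15.0 TPM in lung against 4.17 in lymph node (1.59, adjusted p = 0.00034), and Lgals9 was lowest in lung. Cd44, a receptor bound by galectin-9, was at 269 TPM in blood against 75.6 in lymph node (1.82, adjusted p = 1.57e-11). Myeloid marker RNA was also higher in lung and in blood than in lymph node, and its part in the Havcr2 and Cd44 levels was not tested.

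Of 13 glycan enzymes, 11 differed by the F test, beside 68% of all genes. In lung against lymph node 1 was higher and 5 lower, beside 14.9% and 27.4% of all genes, and in liver none was higher and 5 were lower, beside 9.45% and 21.6%, which T cell scaling turned to 5 and 3 in lung and 4 and 1 in liver. St6gal1, which adds the α-2,6 sialic acid that blocks galectin-1 binding, was at 33.5 TPM in lung and 61.7 in liver against 106 in lymph node (log2 differences of -1.64 and -0.78, adjusted p = 9.41e-12 and 2.01e-07). B4galt1, which adds the galactose that galectins bind, was at 115 TPM in lung against 64.3 in lymph node (0.83, adjusted p = 4.78e-08). Mgat5, which starts the branch that galectin-3 favours, was at 21.2 TPM in lung and 17.5 in lymph node (0.26, adjusted p = 0.0799) and was called higher, at 0.52, with median-of-ratios scaling. In blood against lymph node, St6gal1 (-0.90), Mgat5 (-0.59) and B4galt1 (-0.20) turned to 0.26, 0.51 and 0.96 with T cell scaling.

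Lgals7, a galectin of stratified epithelia, was at 17.8, 0.87 and 33.1 TPM in the 3 lung libraries, and at 0 in all liver and bone marrow libraries. The 7 lung epithelium markers summed to 227 to 300 TPM in lung and to at most 19.8 elsewhere.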
